A study of Mus musculus with 4 samples.

Results

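The Notch ligand genes Jag1 and Jag2 and the Notch receptor gene Notch1 were examined in maps of p63 binding and histone acetylation from mouse salivary gland. The members were selected on their called positions alone: they were the peaks with their midpoint in a window around each gene on the mm9 genome build: chr2:136800000-137400000 for Jag1, chr12:114050000-114250000 for Jag2 and chr2:26200000-26450000 for Notch1. They came to 16 of 4130 p63 peaks and 201 of 183757 H3K27ac peaks. The genes and windows had themselves been picked with the peaks of these lists known. The numbers of peaks per window are therefore given as a description, with no test.

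The cells were epithelial progenitors described as primary and taken from salivary glands of 12-week-old adult mice that were wild type for p63. Chromatin immunoprecipitation followed by sequencing (ChIP-seq) was done with the monoclonal antibody 4A4 to p63 or with an antibody to H3K27ac, histone H3 acetylated at a lysine of its tail. Each of these ChIP libraries had an input library, sequenced without immunoprecipitation, which made 4 groups of 1 library. The data were 2 peak lists of positions only, with no read numbers and no replicates, so depth is unknown and a site without a called peak is not shown to lack the signal. No expression was measured here, so the labelled cell type could not be checked against its marker genes.

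Notch signalling passes between touching cells. A ligand on the sending cell, such as jagged 1 or jagged 2, binds a Notch receptor on its neighbour, and cleavage of the receptor frees an intracellular fragment that acts in the nucleus with the DNA-binding protein RBPJ. p63, a transcription factor of the p53 family, marks basal cells of stratified and glandular epithelia, and H3K27ac marks active promoters and enhancers.

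All 3 genes are on the minus strand in RefSeq, so transcription starts at the upper end of the gene, the end with the higher coordinate, and higher coordinates lie upstream. The 250 bases before the start are shown because acetylated chromatin was called at the upper ends of both ligand genes. They come from RefSeq's promoter table on GRCm38.p6, matched by symbol for 3 of 3 genes (gene IDs 16449, 16450 and 18128), read 5′ to 3′ on the minus strand of chromosome 2 for Jag1 and Notch1 and of chromosome 12 for Jag2. No position in them was carried over to the mm9 peaks. Capitals mark CATG, the core of a p53-family half-site, and GGGCGG, the GC box bound by SP1-family factors, on either strand.
Jag1: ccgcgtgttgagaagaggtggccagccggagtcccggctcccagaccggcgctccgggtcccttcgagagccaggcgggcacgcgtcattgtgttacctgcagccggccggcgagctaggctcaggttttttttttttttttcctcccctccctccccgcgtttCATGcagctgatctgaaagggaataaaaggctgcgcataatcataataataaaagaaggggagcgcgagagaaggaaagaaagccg
Jag2: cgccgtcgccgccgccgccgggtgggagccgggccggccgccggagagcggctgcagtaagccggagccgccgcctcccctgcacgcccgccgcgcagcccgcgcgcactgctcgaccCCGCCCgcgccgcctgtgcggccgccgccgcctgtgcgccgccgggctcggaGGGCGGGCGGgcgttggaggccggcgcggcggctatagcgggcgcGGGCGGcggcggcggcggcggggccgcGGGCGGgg
Notch1: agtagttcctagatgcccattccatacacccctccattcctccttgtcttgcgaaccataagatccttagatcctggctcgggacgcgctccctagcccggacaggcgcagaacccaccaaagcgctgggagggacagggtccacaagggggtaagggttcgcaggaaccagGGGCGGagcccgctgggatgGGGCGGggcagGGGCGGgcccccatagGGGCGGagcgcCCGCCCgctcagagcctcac

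The promoters differed in base composition and in these short motifs. G and C made up 57.2% of the Jag1 sequence, 87.2% of the Jag2 sequence and 66.0% of the Notch1 sequence, against a median of 52.4% over 32841 promoter sequences of this length. CpG dinucleotides numbered 20, 54 and 16 in the same order, against a median of 6. Jag2 was thus near the top of the table in both, with more CpG than 99.98% of its sequences.

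The GC box had at least 1 match in 32.7% of all promoters. It had 5 matches in Jag2, of which 2 overlapped each other, 5 in Notch1 and 0 in Jag1. This motif is all G and C, and its matches were not set against base composition. CATG, found in 54% of promoters, had 1 match, in Jag1, 86 bases before the start. The RBPJ core TGGGAA (21.6%) and the TATA sequence TATAAA (12.4%) had 0 matches in the 3 sequences on either strand. A match is a description of these letters and not a bound site.

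p63 peaks were placed differently around the 3 genes. In all 3 windows, which were picked with these peaks known, they were denser than over the whole list, at Notch1 with 2 peaks only. At Jag1 this rests on sites more than 100 kb from the gene: with the gene and 100 kb on either side, p63 density there was 0.0 per Mb. The Jag1 window of 600 kb held 8 p63 peaks, or 13.3 per Mb (exact Poisson 95% interval 5.76 to 26.3). The Jag2 window of 200 kb held 6, or 30.0 per Mb (interval 11.0 to 65.3). The Notch1 window of 250 kb held 2, or 8.0 per Mb (interval 0.969 to 28.9). Over the whole list, p63 peaks numbered 1.61 per Mb of the 2568 Mb that the chromosomes' outermost peaks enclose.

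When the genome was cut into tiles as long as a window, 0.456% of tiles held at least as many p63 peaks as the Jag1 window, 0.0911% as many as the Jag2 window and 8.98% as many as the Notch1 window. Since these windows were picked with their peaks known, nothing is read from these shares. All intervals given here show counting error only, as if peaks were independent, and are not used to compare windows with each other or with the list.

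H3K27ac peaks were nearly equal in number in the 3 windows, which differ in length, and so their density was lower in the Jag1 window than in the other windows. The Jag1 window held 68 H3K27ac peaks, or 113 per Mb (exact Poisson 95% interval 88.0 to 144), the Jag2 window 66, or 330 per Mb (interval 255 to 420), and the Notch1 window 67, or 268 per Mb (interval 208 to 340). The whole list held 71.6 per Mb. Of tiles of the same length, 20.9% held at least as many H3K27ac peaks as the Jag1 window, 0.675% as many as the Jag2 window and 1.57% as many as the Notch1 window.

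Covered length gave the same order. H3K27ac peaks covered 2.89% of the Jag1 window, 11.5% of the Jag2 window and 9.002% of the Notch1 window, against 1.87% over the whole list. Peaks of 1000 bases or more numbered 1 at Jag1, 3 at Jag2 and 3 at Notch1, or 7 of the 201, against 1.91% of the whole list. The median width was 186.5 bases in Jag1, 221.5 in Jag2 and 228 in Notch1, against 191 over the list. The smallest width seen in the list, 150 bases, was found in 14, 4 and 6 peaks of the Jag1, Jag2 and Notch1 windows. Its share over the whole list was not counted. The lower quartile of width was 155.5, 182.5 and 182.5 bases in the same order, against 155 over the list.

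**Figure D1:**
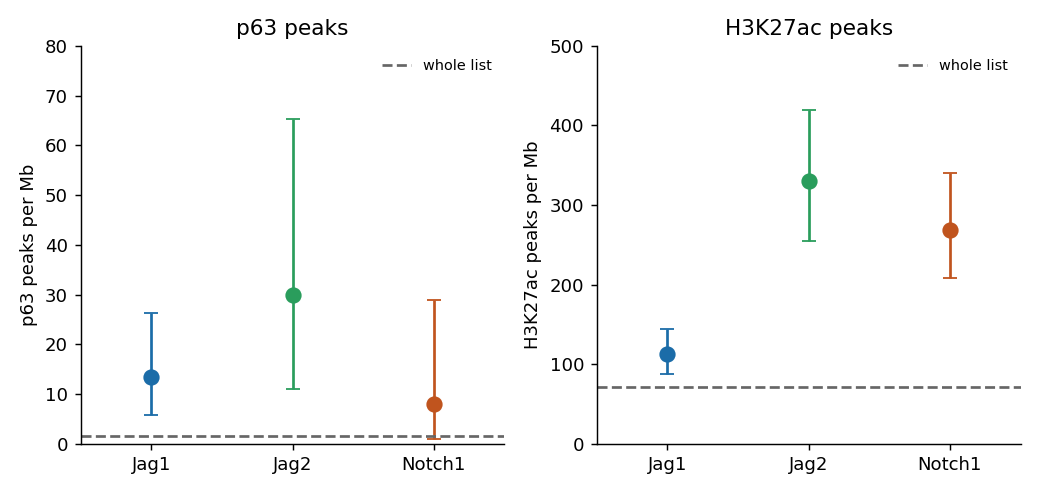
Density of p63 peaks (left) and H3K27ac peaks (right) per Mb in the Jag1, Jag2 and Notch1 windows; points are counts divided by window length, bars are exact Poisson 95% intervals that cover counting error only, and the dashed line is the whole list. The p63 points stand at 13.3, 30.0 and 8.0 per Mb and the H3K27ac points at 113, 330 and 268 per Mb for Jag1, Jag2 and Notch1.

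The ligand and receptor windows are set side by side as values only, since each is a single locus picked with its peaks known. Both ligand windows together held 14 p63 peaks, or 17.5 per Mb, which is 2.19 times the density at Notch1. The ratio to Notch1 was 1.67 for the Jag1 window and 3.75 for the Jag2 window. The windows were also replaced by 100 kb on either side of each ligand gene and of the lower end of Notch1. The ligands together then stood at 1.31 times Notch1, all of it from Jag2. Both p63 peaks of Notch1 lay just inside the edge of that stretch, 96.6 and 99.0 kb above the lower end. The Notch1 value rests on 2 p63 peaks.

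For H3K27ac the values of the ligands fell on either side of that of Notch1. The Jag1 window stood at 0.423 of the Notch1 density and the Jag2 window at 1.23. With 100 kb on either side of each ligand gene and of the lower end of Notch1, the values were 0.426 and 1.12. Both ligands together came to 0.625 of Notch1 in the windows and to 0.762 with 100 kb on either side. Between the ligands, the Jag2 window had 2.91 times the H3K27ac density of the Jag1 window. With H3K27ac peaks at most 1000 bases apart joined, the densities were 160 and 86.7 per Mb, or 1.85 times. Whether ligand and receptor loci differ was not tested.

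The number of p63 peaks at Jag1 depended on the length of its window. The gene, at about 136.907 to 136.942 Mb, has 107 kb of window below it and 458 kb above it, and all 8 p63 peaks lay above it. With the gene and 100 kb on either side, 235 kb in all, the p63 count at Jag1 was 0, that of Jag2 stayed at 6 and that of Notch1, taken around its lower end, at 2.

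**Figure D2:**
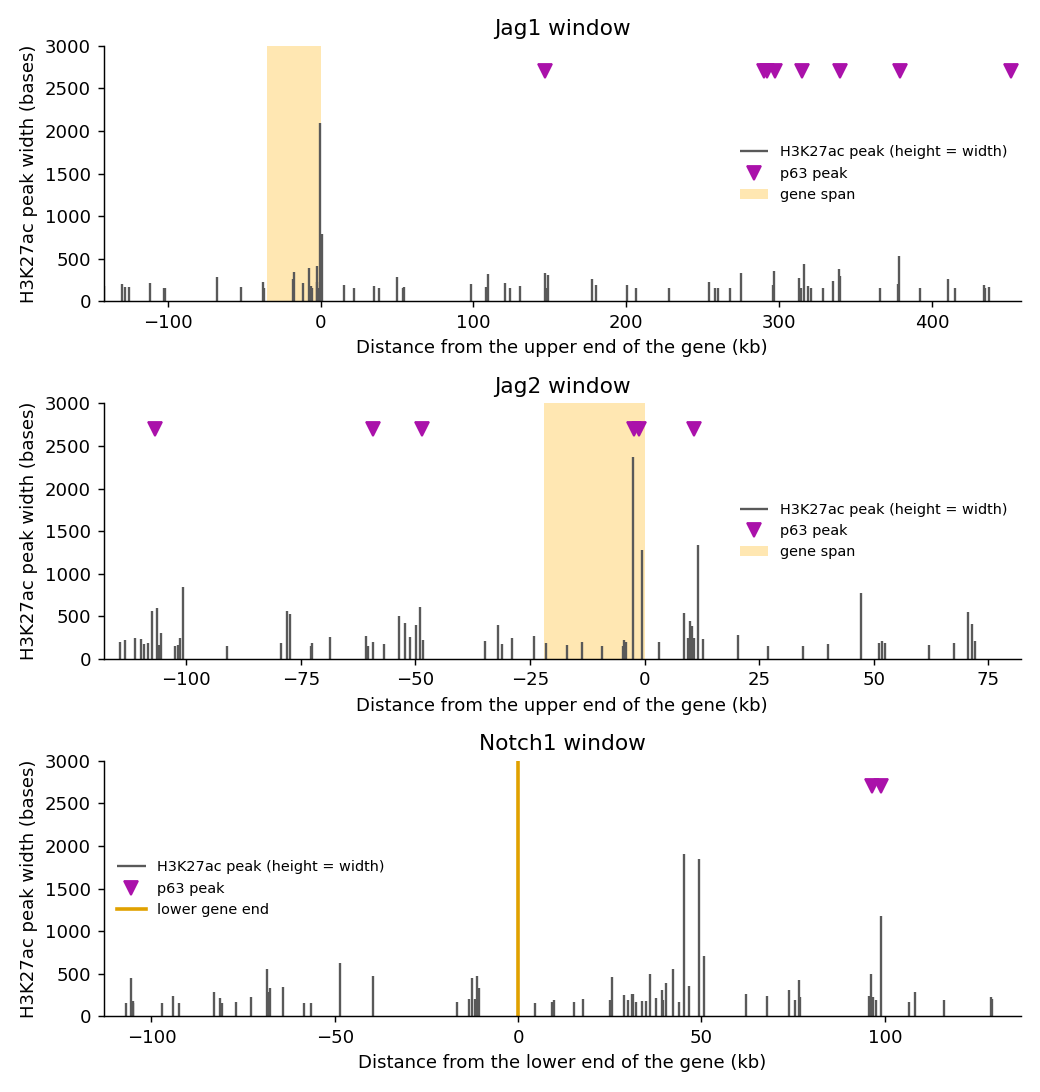
Peaks of each window by distance in kb from the upper end of the gene (Jag1, Jag2) or from its lower end (Notch1, whose upper end was not used). Grey lines are H3K27ac peaks with their width in bases as height, and triangles are p63 peaks, drawn at 1 height. The p63 peaks of Jag1 lie from 147 to 452 kb above the gene. At Jag2, 2 of the 6 lie within the gene and share bases with the window's widest H3K27ac peak of 2368 bases.

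Jag1, which encodes jagged 1, had its widest acetylated peaks at the start of the gene and its p63 peaks far upstream. The widest H3K27ac peak of the window, chr2:136940334-136942423 (2090 bases), spanned the approximate upper end of the gene, and the next widest, chr2:136942566-136943360 (795 bases), followed after a gap of 142 bases. Neither shared a base with p63, and the nearest p63 peak was 146 kb and 145 kb away. The gene span carried 10 H3K27ac peaks that covered 11.4% of it, against 2.45% of the 458 kb above it and 1.96% of the 107 kb below it. At the approximate lower end of the gene the nearest H3K27ac peak, chr2:136904579-136904736 (158 bases), lay 2264 bases outside the span.

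Of the 8 p63 peaks at Jag1, 1 shared a base with H3K27ac (12.5%, Wilson 95% interval 2.24 to 47.1%); the share over all p63 peaks was 34.8%. This was the p63 peak nearest to the gene, chr2:137088656-137088918 (263 bases), 147 kb above its upper end. It shared 183 bases with an H3K27ac peak of 328 bases, chr2:137088736-137089063. Within 1000 bases of H3K27ac lay 5 of the 8 (62.5%, interval 30.6 to 86.3%), beside 68.4% of all p63 peaks.

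The next p63 peaks of Jag1 formed a group. At 290 and 292 kb above the gene, chr2:137232357-137232482 (126 bases) and chr2:137234180-137234343 (164 bases) had midpoints 1842 bases apart, and at 297 kb chr2:137239375-137239506 (132 bases) followed 5179 bases further on. Their nearest H3K27ac peaks lay 5375, 3514 and 686 bases away, at chr2:137237858-137238052 (195 bases) for the lower pair and at chr2:137238339-137238688 (350 bases) for the other. The acetylated sites thus lay between the members of the group and not under them. Having another p63 midpoint within 10 kb is a feature of 14.5% of all p63 peaks, and of 3 at Jag1, 2 at Jag2 and 2 at Notch1.

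Further up, several Jag1 sites came close to H3K27ac without sharing a base. The p63 peak chr2:137256668-137256866 (199 bases, 315 kb above the gene) lay 178 bases from an H3K27ac peak of 154 bases, chr2:137256336-137256489. The peak chr2:137281467-137281754 (288 bases, 340 kb) filled 288 of the 366 bases between the H3K27ac peaks chr2:137281016-137281389 and chr2:137281756-137282046, missing the upper one by 1 base and the lower one by 77. The peak chr2:137320835-137320961 (127 bases, 379 kb) missed chr2:137320299-137320828, the third widest H3K27ac peak of the window with 530 bases, by 6 bases. For those last 2 sites the absence of overlap rests on a few bases at the edge of a called peak.

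The p63 peak highest above Jag1, chr2:137393589-137393821 (233 bases, 452 kb), had no H3K27ac within 5 kb. Its nearest acetylated site was 13858 bases below it, chr2:137379560-137379730 (171 bases). In the RefSeq order of protein-coding genes, Btbd3 is the next gene on this side of Jag1 and Slx4ip on the other, and no p63 peak is assigned to any of them here. The nearest p63 peaks left out by the window were chr2:136745277-136745523, 54.6 kb below its lower edge, and chr2:137431491-137431769, 31.6 kb above its upper edge; the outermost members were 289 kb and 6.30 kb from these edges.

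Jag2, which encodes jagged 2, had p63 and acetylation together at the start of the gene. The widest H3K27ac peak of its window, chr12:114164320-114166687 (2368 bases), and the third widest, chr12:114166741-114168015 (1275 bases), lay end to end up to the upper end of the gene at about 114.168 Mb, with a gap of 53 bases between them. The p63 peak chr12:114165716-114165860 (145 bases) lay wholly inside the first of these, about 2.21 kb below the upper gene end. The p63 peak chr12:114166624-114166882 (259 bases), about 1.25 kb below that end, reached across the gap and shared bases with both. These are the only p63 members within either ligand gene's span, and their midpoints are 965 bases apart.

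All 6 p63 peaks at Jag2 shared a base with H3K27ac (100%, Wilson 95% interval 61.0 to 100%), beside 34.8% of all p63 peaks. By midpoints, the share at Jag2 was 50.0%, or 3 of 6, and at Jag1 it stayed at 12.5%, or 1 of 8, beside 18.8% of all p63 midpoints. Counted from the other side, 7 of the 66 H3K27ac peaks at Jag2 shared a base with p63 (10.6%). The share was 1 of 68 at Jag1 (1.47%), 3 of 67 at Notch1 (4.48%) and 0.839% over the whole H3K27ac list. This share depends on how many p63 peaks a window holds, and the windows were picked with these known, so nothing is read from it. For every 100 H3K27ac peaks there were 11.8 p63 peaks at Jag1, 9.09 at Jag2 and 2.99 at Notch1, against 2.25 over the lists. The overlap at Jag2 varied in depth. With the H3K27ac peak that it shared most with, a p63 peak shared from 8.97 to 100% of its bases. The p63 peak chr12:114060994-114061283 (290 bases) shared 26 bases with chr12:114061258-114061859 (602 bases).

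Upstream of Jag2, 10.7 kb above the gene, the widest p63 member of the 3 windows, chr12:114178525-114178825 (301 bases), lay in a run of H3K27ac peaks. It covered the whole gap of 161 bases between chr12:114178172-114178552 and chr12:114178714-114178960, and the second widest H3K27ac peak of the window, chr12:114179017-114180353 (1337 bases), began 191 bases past it. Below the gene, the p63 peak chr12:114108689-114108858 (170 bases) shared 101 bases with chr12:114108588-114108789 (202 bases). The p63 peak chr12:114119276-114119514 (239 bases) shared 50 bases with chr12:114119465-114119686 (222 bases) and began 8 bases above another H3K27ac peak, chr12:114118661-114119267.

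These sites below Jag2 were 48.6 to 107 kb from the upper end of the gene, on the side where RefSeq order places Gpr132, while Nudt14 and Brf1 follow on the other side. Acetylation at Jag2 was dense on all sides of the gene. H3K27ac covered 22.2% of the gene span, 11.2% of the 96 kb below it and 8.85% of the 82 kb above it. At the approximate lower end of the gene the nearest H3K27ac peak, chr12:114146467-114146650 (184 bases), began 466 bases above that end. The end is too roughly known to place this peak inside or outside the gene. The nearest p63 peaks outside the window were 68.5 kb below its lower edge and 129 kb above its upper edge, and the outermost members were 11.1 and 71.3 kb inside these edges.

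Notch1, the receptor gene, had wide acetylated peaks and 2 p63 peaks close together. Its lower end lies at about 26.313 Mb; the position of its upper end was not used here. The widest H3K27ac peaks, chr2:26357389-26359294 (1906 bases) and chr2:26361351-26363198 (1848 bases), had midpoints 45.3 and 49.3 kb above the lower end. Neither shared a base with p63, and the nearest p63 peak was 50.2 and 46.3 kb away.

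Both p63 peaks of Notch1 lay 97 to 99 kb above the lower end, with midpoints 2409 bases apart. Both shared a base with H3K27ac (2 of 2, Wilson 95% interval 34.2 to 100%), beside 34.8% of all p63 peaks. The first, chr2:26409503-26409747 (245 bases), covered the whole gap of 170 bases between chr2:26409024-26409517 (494 bases) and chr2:26409688-26409912 (225 bases). The second, chr2:26411951-26412117 (167 bases), lay wholly inside chr2:26411426-26412599 (1174 bases), the third widest H3K27ac peak of the window. By midpoints, 1 of the 2 lay in an H3K27ac peak, beside 18.8% of all p63 midpoints.

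H3K27ac covered 11.1% of the 137 kb above the lower end of Notch1 and 6.45% of the 113 kb below it, where no p63 peak was called. At the approximate lower end of the gene the nearest H3K27ac peak, chr2:26317656-26317805 (150 bases), lay 4655 bases above it. The nearest p63 peaks outside the window were far off, 200 kb below its lower edge and 414 kb above its upper edge, while the members lay 210 and 38.0 kb inside these edges. In RefSeq order Sec16a and Egfl7 are the neighbouring protein-coding genes, and the p63 pair was not assigned to Notch1 or Egfl7.

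**Figure D3:**
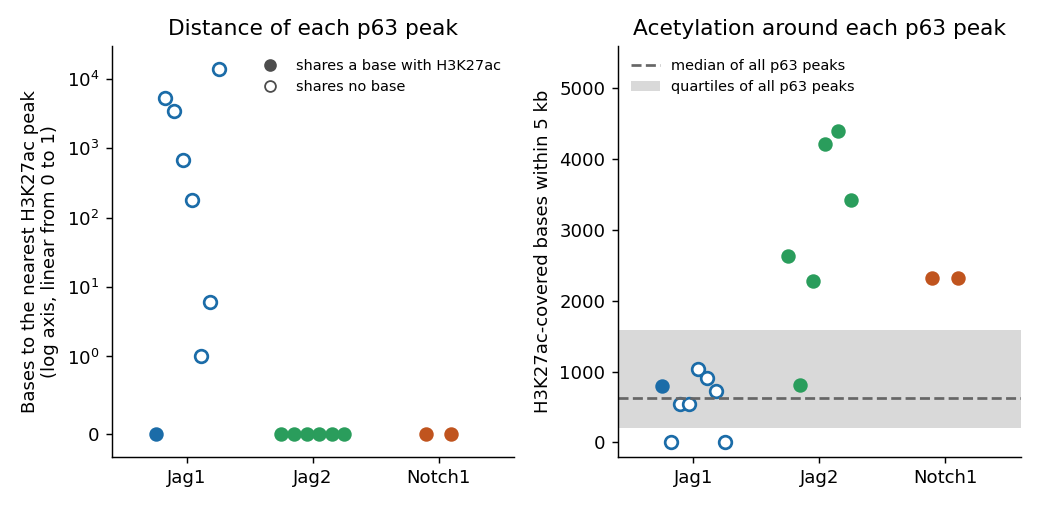
Each p63 peak of the 3 windows by the number of bases to its nearest H3K27ac peak (left, log axis that is linear from 0 to 1) and by the number of H3K27ac-covered bases within 5 kb of its midpoint (right); filled points share a base with H3K27ac, open points do not, and the dashed line and grey band are the median (632 bases) and quartiles over all p63 peaks. The peaks of Jag1 lie from 0 to 1035 covered bases, and 5 of 6 at Jag2 and both at Notch1 lie above the band.

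Less acetylation surrounded the p63 peaks of Jag1 than those of Jag2 and Notch1, with 1 exception. Within 5 kb on either side of the 8 p63 midpoints at Jag1, H3K27ac covered from 0 to 1035 bases with a median of 638.5, close to the median of 632 over all p63 peaks (quartiles 202 and 1590). At Jag2 the 6 values ran from 806 to 4405 bases with a median of 3028, and at Notch1 both were 2320. All but 1 of the Jag2 values, and both at Notch1, lay above every value at Jag1. The exception was the p63 peak chr12:114108689-114108858, at 806 bases. Neighbouring p63 peaks share part of these stretches, so the values are not independent. The closest pairs share most of them, with midpoints 965 bases apart at Jag2, 1842 at Jag1 and 2409 at Notch1. The 2 highest Jag2 values, 4212 and 4405 bases, come from that Jag2 pair.

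Across the 3 windows, 6 of the 16 p63 peaks reached into a gap of at most 1000 bases between neighbouring H3K27ac peaks, a feature of 26.1% of all p63 peaks. They were 1 at Jag1, 4 at Jag2 and 1 at Notch1. Of these, 3 covered the gap whole, 2 at Jag2 and 1 at Notch1, and 3.22% of all p63 peaks did so. By reaching past both ends of the gap, the same 3 p63 peaks each shared bases with 2 H3K27ac peaks. This is not a separate feature, and 3.12% of all p63 peaks shared bases with 2 or more. The midpoint lay in such a gap for 5 of the 16, against 20.2% of all p63 peaks. Widths of the members ran from 126 to 288 bases at Jag1, from 145 to 301 at Jag2 and from 167 to 245 at Notch1, and 9 of the 16 were at or above the list's median of 181 bases.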

How the data were processed

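The authors deposited 2 peak lists with 3 columns (chromosome, start, end) and no score, each tied by the labels to 1 ChIP library and its input. Bowtie 1.1.1 (aligner), MACS2 2.1.0 (peak caller) and the build mm9 are named in the submitters' processing notes; settings, peak threshold and any removal of duplicates were not given in the sources used here. Windows and approximate gene positions were taken from the definition of the members, and starts are printed counted from 1. Overlap needed 1 shared base; distances are the bases between peaks. Shares have Wilson 95% intervals and densities exact Poisson 95% intervals. Tiles were cut from the start of each chromosome to its last peak. No mm9 annotation was used, so the planned list of other Notch pathway genes was not examined. Peaks were named by rule: all p63 peaks, the H3K27ac peak nearest each, the 3 widest per window and those nearest the gene ends. Members and lists were chosen with earlier results of these data known. The interval functions were tested on simulated data. The scripts ran under Python 3.11.15 with scipy 1.17.1, pandas 2.3.3, numpy 2.4.6 and matplotlib 3.10.9.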

Additional observations from a re-analysis of the deposited data

How the results depend on the processing

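Of 62 alternative values, 55 stayed within 1.5 times (densities and covered length) or within the interval (shares and ratios), and 7 did not. The 55 are no measure of stability, because few values could leave such wide intervals. The interval was 34.2 to 100% for the overlap at Notch1 and 0.502 to 19.8 for the p63 ratio of ligands to receptor. Counting peaks with any base in the window, in place of midpoints, changed no value. With the gene and 100 kb on either side, p63 density at Jag1 was 0.0 per Mb; its shares then have no value. With p63 peaks at or above the median width it was 6.67 per Mb at Jag1 and 4.0 at Notch1. With H3K27ac peaks at most 1000 bases apart joined, H3K27ac density was 160 per Mb at Jag2 and 156 at Notch1, and joined peaks, gaps included, covered 17.4% of the Jag2 window. Counting p63 midpoints inside H3K27ac took the overlap at Jag2 to 50.0%. Of these, the lower p63 densities at the median width follow from fewer peaks, and the lower H3K27ac densities from joined peaks. The 0.0 per Mb at Jag1 follows from the shorter stretch, and the 50.0% at Jag2 from the stricter overlap rule. No paired analysis was possible because there was 1 library in every group. The unknown depth limits which sites could be called.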
